A study of Mus musculus with 6 samples.

Results

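After ischemic injury, 1041 places in the mouse autosomes held 3 or more closely spaced peaks of 5-hydroxymethylcytosine (5hmC) at more than 10 kb from any peak of control brain. These clusters are the subject here. They were chosen from the peak positions: injury-list peaks on chromosomes 1 to 19 that lay more than 10 kb, edge to edge, from every control-list peak were kept, these peaks with gaps of 5 kb or less were chained, and chains of 3 or more peaks were taken. The clusters held 3787 peaks, which is 7.1% of the 53341 autosomal injury-list peaks. Their distance from control, their grouping and the absence of a control peak were therefore set by the choice, and their values are given as a description.

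The data came from brain tissue of C57BL/6 mice in 2 groups, 3 mice with ischemic injury (I/R) and 3 matched control mice. Genomic DNA was enriched for 5hmC with hMe-Seal, in which a modified sugar is attached to the 5hmC base so that the fragments carrying it can be captured, and was then sequenced. The deposited data were 1 peak list per group on the mm9 build of the mouse genome, 53374 peaks for injury and 20583 for control. The brain region, the age and sex of the mice, how ischemia was induced and the time after it are not given in the sources used, and peak lists of whole tissue hold no marker by which the cell types could be checked. No value belongs to a single mouse, so the variation from mouse to mouse is unknown, the groups could not be compared by a test, and no p-value is given. The number of reads behind each list is unknown as well.

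5hmC is made from 5-methylcytosine by the TET enzymes, which oxidise the methyl group. It can be a step on the way back to unmodified cytosine, and it can also persist as a mark of its own. Brain, and neurons in particular, carry more of it than most tissues, and in neurons it is typically found along the bodies of transcribed genes and at distal regulatory elements, while the transcription start sites of active genes are poor in it. A stretch of chromatin with much 5hmC can thus appear in a peak list as a row of neighbouring peaks.

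A row of injury-list peaks without any control-list peak nearby was a minority form. Of the autosomal injury-list peaks, 19236 (36.1%) lay more than 10 kb from the control list. Of these far peaks 3787 were in clusters (19.7%, 95% interval 19.1 to 20.3%), 4644 were in pairs (24.1%) and 10805 were solitary (56.2%). When all autosomal injury-list peaks were chained with the same gap of 5 kb, regardless of the control list, they formed 5410 runs of 3 or more peaks. At least 1 peak overlapped a control-list peak in 4224 of these runs (78.1%), 330 had no overlap but came within 10 kb of a control-list peak, and 856 (15.8%) lay wholly beyond 10 kb. Those 856 whole runs were 82.2% of the clusters. The other 185 clusters were far parts of longer runs that also held at least 1 peak within 10 kb of control. Intervals on shares here and below are exact binomial (Clopper-Pearson). They cover counting error only and treat neighbouring peaks as independent, which makes them too narrow.

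The control list had almost no such clusters. With the lists exchanged, 1331 of 20555 autosomal control-list peaks (6.48%) lay more than 10 kb from the injury list. Of these, 1255 were solitary, 70 were in pairs and 6 were in clusters of 3, so that the control list had 2 clusters against 1041. One of them, chr5:147833346-147847841, spanned 14.5 kb with a highest control-list score of 273.35 and a lowest of 151.06. The other, chr8:98316390-98327378, spanned 11.0 kb and had scores from 54.32 to 58.07. The contrast depended on how the lists were limited. With a score of at least 79.7, the control median, required in both lists, there were 694 injury-list and 2 control-list clusters. When the injury list was cut by score to the 20583 entries of the control list, which changes its length and its lowest score together, there were 70 injury-list and 47 control-list clusters. The number 1041 belongs to these lists as called and is not a measure of 5hmC gained.

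Most clusters were small. There were 650 clusters of 3 peaks (62.4%), 235 of 4, 99 of 5 and 30 of 6, and 27 clusters held 7 or more. Spans ran from 4.10 to 57.8 kb with a median of 11.9 kb (quartiles 9.28 and 15.2 kb). The median rose from 10.3 kb for clusters of 3 peaks to 28.8 kb for those of 7 or more, as chaining makes it. In all, the clusters spanned 13.6 Mb, and their peaks covered 8.66 Mb, which is 6.48% of the bases under autosomal injury-list peaks. Runs that overlapped control were longer, with a median of 4 peaks and 18.0 kb and a maximum of 54 peaks, against a median of 3 peaks and 11.7 kb and a maximum of 13 peaks for runs wholly beyond 10 kb. Of the 204 runs with 13 or more peaks, 202 overlapped the control list. A run counts as overlapping when 1 of its peaks does, so a longer run falls into that class more easily, and these lengths are no separate result.

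**Figure D1:**
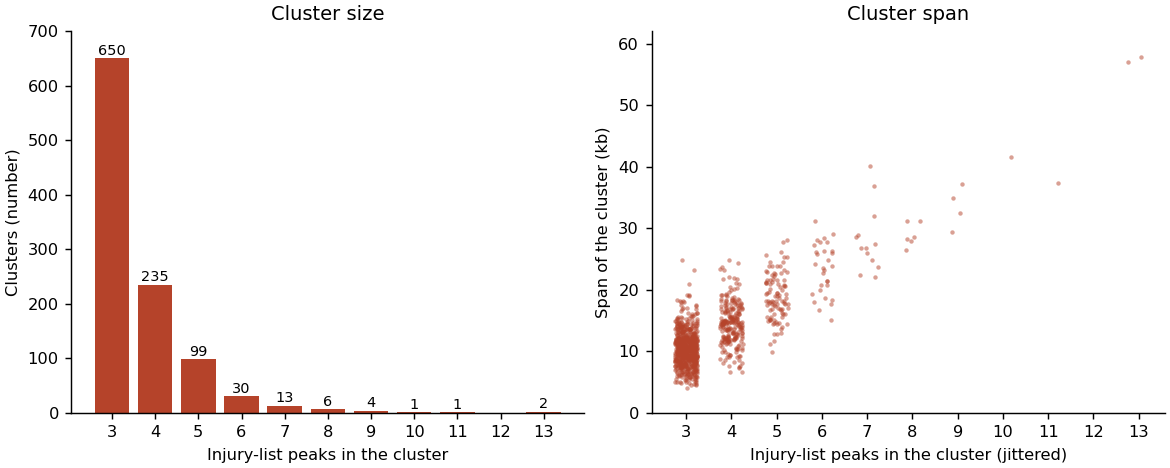
Number of clusters by the number of injury-list peaks they hold (left, bars) and the span of each cluster in kb (right, 1 point per cluster, jittered sideways). Clusters of 3 peaks number 650, and 2 clusters of 13 peaks span over 57 kb.

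At the gap limit of 5 kb, the peaks of a cluster covered a median of 63.6% of its span (quartiles 54.8 and 75.3%), from 28.8 to 99.5%. This share depends on the limit: the median was 81.7% with gaps of 2 kb or less and 46.7% with gaps of 10 kb or less. The 2746 gaps between neighbouring peaks had a median of 1497 bp (quartiles 505 and 2944 bp), and 1092 of them (39.8%, 37.9 to 41.6%) were under 1 kb. Where peaks within 1 kb were taken as one region that the peak caller had split, 535 clusters (51.4%) still had 3 or more separate pieces. Another 379 (36.4%) had 2 pieces, and 127 (12.2%) became 1 continuous region. With this merging limit, about as many clusters came out as 1 or 2 broad regions as came out as rows of at least 3 separate regions. Whether the peak caller had split regions was not tested.

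The 2 largest clusters had 13 peaks each. Their control-free stretches (distance between the flanking control-list peaks) were longer than the median stretch with clusters, 112.7 kb, but below the upper quartile, 231.7 kb. The first cluster, chr12:113687175-113744944, spanned 57.8 kb, of which its peaks covered 72.3%. Its scores, which are the authors' own peak-caller values, ran from 51.24 to 264.13 with a median of 148.13. The strongest peaks lay toward both sides: peak 5 had a score of 264.13 and the last 3 had 208.72, 198.67 and 240.55. Peaks 6 to 10 between them had 59.32, 84.8, 53.48, 51.24 and 85.18. The nearest control-list peak was 48.3 kb to the right and 103.9 kb to the left. A row of strong, weak and strong peaks thus ran through this cluster with no control-list peak inside it.

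The same control-free stretch, chr12:113583282-113793229, held 3 further clusters, the most in any stretch. They were chr12:113631132-113655674 with 5 peaks and a highest score of 291.8, chr12:113666629-113681397 with 3 peaks and 206.36, and chr12:113755474-113781135 with 5 peaks and 309.05. The 4 clusters held 26 of the 31 injury-list peaks of this stretch of 209.9 kb, and injury-list peaks covered 48.0% of it. The closest of them were 5.78 kb apart, just over the gap limit of 5 kb. A further cluster, chr12:113509205-113527524, lay to the left of the stretch beyond the flanking control-list peaks. The surroundings were not free of control signal: within 500 kb of the largest cluster there were 50 control-list and 137 injury-list peaks.

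The other cluster of 13 peaks, chr4:150580716-150637783, spanned 57.1 kb with 74.3% covered. Its scores ran from 53.27 to 254.01 with a median of 111.75. The high peaks were spread along it: peak 1 had 248.08, peak 9 had 241.67 and peak 10 had 254.01, and the widest, peak 4 at 8.58 kb, had 168.34. Its stretch, chr4:150521198-150690135, was 168.9 kb long and 51.2% covered by 26 injury-list peaks. Of these, 3 belonged to chr4:150533304-150545265 and 5 to chr4:150655715-150678803, with highest scores of 118.55 and 140.33. The flanking control-list peaks were 59.5 kb and 52.4 kb from the large cluster.

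The next clusters by number of peaks had lower scores. The cluster chr11:113784888-113822159, with 11 peaks over 37.3 kb, had scores from 51.08 to 111.6 with a median of 78.7. Control-list peaks flanked it at 11.8 kb and 15.9 kb, and 15 of them lay within 100 kb. The cluster chr18:36199901-36241393, with 10 peaks over 41.5 kb, had scores from 52.75 to 161.16 with a median of 96.17, and control-list peaks at 17.6 kb and 24.4 kb. After merging within 1 kb it had 8 separate pieces, as many as the larger chromosome 4 cluster.

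The 4 clusters of 9 peaks differed in how isolated they were. At chr14:118316489-118353704 the scores ran from 51.02 to 231.9, no control-list peak lay within 100 kb, and the flanking ones were 533.7 kb and 115.5 kb away. At chr7:35787518-35816870 the scores were even, from 50.54 to 121.98 with a median of 93.18, the flanking control-list peaks were 181.7 kb and 87.8 kb away, and the stretch held 3 clusters with 19 peaks in all. At chr10:39106938-39139453 the scores ran from 51.14 to 125.35, with control-list peaks 13.0 kb and 13.7 kb away. At chr17:5889613-5924554 they ran from 61.77 to 213.04, with control-list peaks 12.7 kb and 10.5 kb away, and here 1 further peak of the same run lay within 10 kb of control. The large clusters thus included isolated ones and ones that filled the space between close control-list peaks. The longest cluster outside these 8 was chr17:12426221-12466375, with 7 peaks over 40.2 kb and scores from 54.59 to 311.7. Its run held 7 further peaks, at least 1 of them within 10 kb of control.

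**Figure D2:**
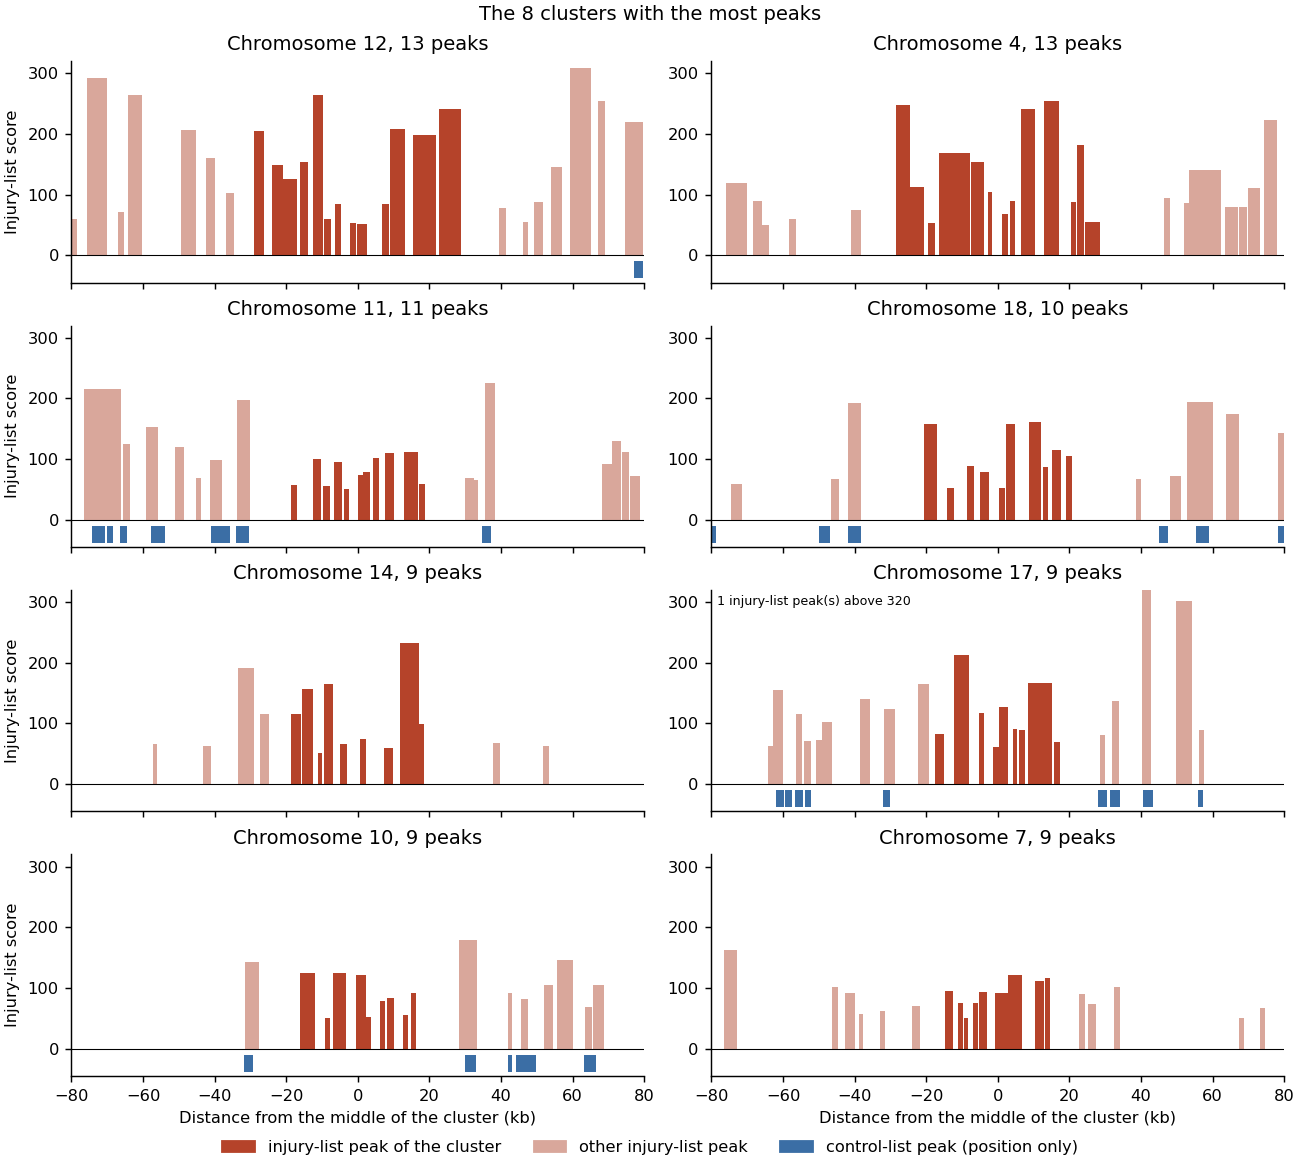
The 8 clusters with the most peaks. Bars give injury-list peaks with their width (x axis, kb from the middle of the cluster) and score (y axis, authors' score), dark for peaks of the cluster and pale for other injury-list peaks, and blue boxes give the positions of control-list peaks. The chromosome 12 and chromosome 4 clusters have 13 peaks each with scores up to 264.13 and 254.01. No control-list peak is in view for the chromosome 4, chromosome 14 and chromosome 7 clusters.

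Scores within a cluster were uneven. The score was read as -10 × log10 of the caller's p-value, and its minimum is 50 in both lists. The highest score of a cluster had a median of 127.34 (quartiles 95.84 and 177.86) and the lowest a median of 58.06 (53.25 and 66.29), so most clusters had at least 1 peak near the minimum. The lowest of several peaks tends to be low in any group, and values for groups of unrelated peaks were not computed. In 228 clusters (21.9%, 19.4 to 24.5%) the highest score was more than 3 times the lowest. The highest was at least 2 times the second in 172 clusters (16.5%, 14.3 to 18.9%), and the median ratio of highest to second was 1.36. The spread of log2 scores inside clusters (SD 0.61) was nearly that of all cluster peaks together (SD 0.63), and the variance inside clusters was 94.2% of the total. For log2 width this share was 91.4%. Peaks of one cluster were thus hardly more alike in score or width than cluster peaks at large.

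The strongest peak had no fixed place. In the 650 clusters of 3 peaks it was the first along the chromosome in 209 (32.2%), the middle one in 221 (34.0%) and the last in 220 (33.8%). The median scores at the first, middle and last positions were 77.0, 80.5 and 77.5, and the median widths were 1964, 1990 and 1974 bp. The 3 positions had nearly equal shares and like scores and widths.

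The 5 clusters that held the highest single scores differed in how the scores were spread. The highest score in any cluster, 524.19, belonged to a peak of 6.51 kb at chr8:49221984-49228495, the fourth of 6 peaks in chr8:49209135-49238112. The other peaks of this cluster had scores of 269.64, 54.29, 109.08, 74.33 and 83.79. In chr13:103523705-103541969 the first of 4 peaks had 514.11 and the others 56.81, 53.14 and 118.93. In chr13:9684022-9694336 the middle peak, 5.60 kb wide, had 455.76 between peaks of 51.28 and 62.94, and the nearest control-list peak was 189.1 kb away. The best score was at least 2 times the second in both chromosome 13 clusters, while the chromosome 8 cluster had 2 peaks in the top 10% of the injury list, which began at 233.8.

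In chr10:127146506-127167484 the 5 peaks had scores of 516.37, 138.48, 462.28, 53.74 and 280.79, and they covered 88.5% of 21.0 kb. Merging within 1 kb left 2 pieces there, and the nearest control-list peak was 10.3 kb away, close to the limit. These included 3 peaks in the top 10%. In chr11:5097705-5116837 the 4 peaks had 72.35, 461.39, 193.16 and 149.59, with 1 in the top 10%. This cluster was a far part of a run of 19 peaks, at least 1 of which came within 10 kb of control.

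Cluster peaks were set beside the other injury-list peaks on the score scale of the injury list alone. Their median score was 80.9 (interval of the median 79.4 to 82.4, quartiles 61.6 and 112.5). It was 73.6 for peaks in far pairs (72.8 to 74.7), 69.2 for solitary far peaks (68.6 to 69.8) and 80.2 for peaks without overlap but within 10 kb of control (79.6 to 80.9). Peaks that overlapped control had a median of 140.0 (138.0 to 141.8). Median widths followed the same order, 1988 bp in clusters, 1872 bp in pairs, 1743 bp for solitary peaks, 1988 bp for the nearby peaks without overlap and 2578 bp for those that overlapped control. On both measures, cluster peaks lay with the injury-only peaks beside control peaks, above solitary far peaks and far below peaks that overlapped control. A wider peak leaves smaller gaps and overlaps control more readily, so width is not independent of the classes. The order of widths is therefore no separate result. The quartile ranges of the classes overlap, and with 1 list per group these differences could not be tested over mice.

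High scores showed the same order. The top 10% of the injury list was reached by 128 of 3787 cluster peaks (3.38%, 2.83 to 4.01%). The shares were 1.49% in pairs (1.16 to 1.88%), 0.72% among solitary far peaks (0.57 to 0.90%), 3.36% among nearby peaks without overlap (3.08 to 3.65%) and 24.9% among peaks that overlapped control (24.2 to 25.5%). These peaks were spread over 112 clusters (10.8%). In 63 clusters (6.05%) every peak reached the median score of the injury list, 87.33, and in 171 (16.4%) none did. Clusters with strong peaks throughout were thus a small part of the 1041. The median score of cluster peaks, 80.9, was itself below 87.33, and the share for groups of unrelated peaks was not computed.

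**Figure D3:**
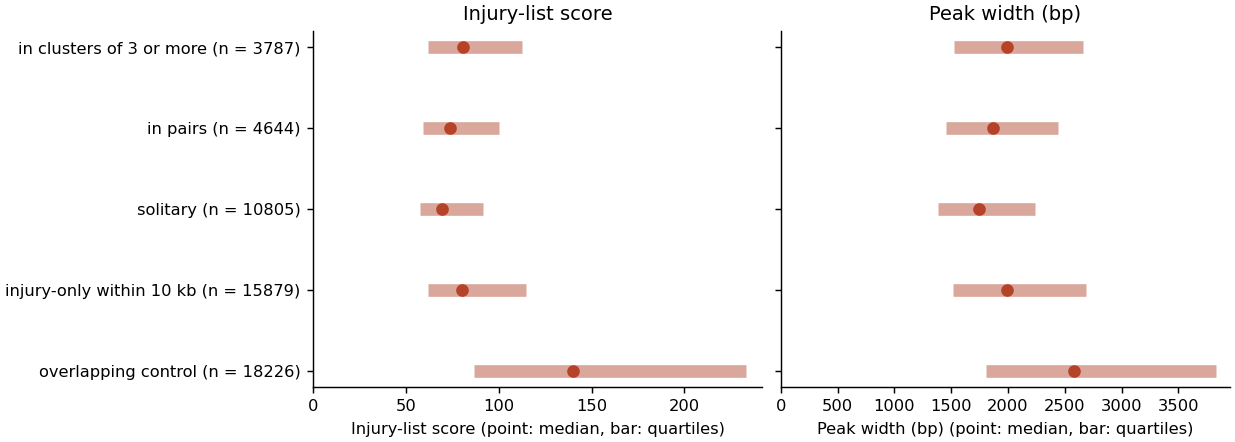
Score (left, authors' score of the injury list) and width in bp (right) of autosomal injury-list peaks in 5 classes, with the median as a point and the quartiles as a bar. Peaks in clusters, with medians of 80.9 and 1988 bp, lie near the injury-only peaks within 10 kb of control and below the peaks that overlap control, at 140.0 and 2578 bp.

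Although chosen to be far from control, the clusters were mostly not remote. The nearest control-list peak was at a median of 21.2 kb (quartiles 13.0 and 46.6 kb). There were 499 clusters (47.9%) at 10 to 20 kb, 302 at 20 to 50 kb, 153 at 50 to 100 kb, 66 at 100 to 200 kb and 21 (2.02%) beyond 200 kb. The distance of a cluster is that of its peak nearest to control, which moves clusters into the nearer classes. Counted by peak, 1156 of the 3787 cluster peaks lay at 10 to 20 kb, compared with 5571 of all 19236 far peaks. Control-list peaks lay on both sides of every cluster, and in 380 clusters (36.5%) both were within 50 kb. The farther of the flanking control-list peaks was at a median of 79.6 kb. The control-free stretches that held clusters numbered 916 and had a median length of 112.7 kb, and injury-list peaks covered a median of 14.5% of them. Of these, 807 held 1 cluster, 94 held 2, 14 held 3 and 1 held 4.

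Far peaks were less often in clusters beyond 100 kb from control. Among far injury-list peaks at 10 to 20 kb from control 20.8% were in clusters (19.7 to 21.8%), and at 20 to 50 kb the share was 24.7% (23.6 to 25.8%). It was 19.6% at 50 to 100 kb (18.3 to 21.0%), 12.7% at 100 to 200 kb (11.3 to 14.2%) and 4.71% beyond 200 kb (3.73 to 5.87%). In the nearest class the 10 kb limit can cut a chain short. Scores moved with distance too. The median score of cluster peaks was 85.5 at 10 to 20 kb, 81.5 at 20 to 50 kb, 77.4 at 50 to 100 kb, 75.2 at 100 to 200 kb and 70.7 beyond 200 kb, where it rests on 76 peaks. Solitary far peaks went from 73.0 to 64.7 over the same classes, so that cluster peaks had the higher median in each of the 5.

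**Figure D4:**
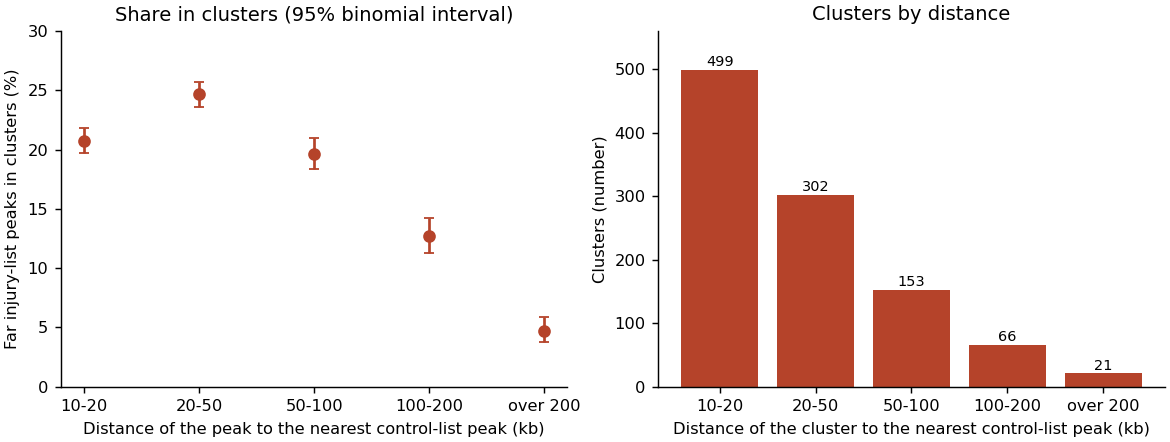
Share of far injury-list peaks that lie in clusters, in % with 95% binomial intervals (left), and the number of clusters (right), by distance to the nearest control-list peak in kb. The share is highest at 20 to 50 kb, 24.7%, and lowest beyond 200 kb, 4.71%.

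The 5 most remote clusters had 3 or 4 peaks and no score in the top 10% of the injury list. The farthest, chr15:66719757-66727679, lay 1294 kb from the nearest control-list peak and had 3 peaks over 7.92 kb with scores of 50.54, 112.3 and 68.29. Next came chr19:34945648-34952318 at 1180 kb, with scores of 103.8, 76.89 and 60.81, and its 3 peaks became 1 region when merged within 1 kb. The cluster chr7:116280476-116294458 at 712.5 kb had scores of 106.75, 96.99 and 56.2. These were the 3 clusters without a control-list peak within 500 kb. The cluster chr3:100289169-100300331 at 480.9 kb had scores of 52.48, 60.78 and 64.6, all near the minimum, and its 3 narrow peaks covered 33.9% of 11.2 kb. The cluster chr15:10630464-10643472 at 459.9 kb had 4 peaks with scores of 141.94, 71.17, 58.84 and 112.05. Its highest score was above the median over all clusters, 127.34, and those of the other 4 were below it.

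The 10 kb limit cut through a continuous range of distances. Just inside it were chr5:129252927-129267442 with 4 peaks (highest score 233.44), chr7:123400932-123413298 with 3 peaks (206.38), both 10014 bp from control, and chr12:113509205-113527524 with 4 peaks (340.75) at 10026 bp. Just outside it were chr3:129754589-129762657 (109.68) at 9999 bp, chr13:59038695-59050917 (104.18) at 9944 bp and chr6:115859497-115870759 (84.29) at 9904 bp, each with 3 peaks. The chromosome 5 and chromosome 12 clusters inside the limit were themselves parts of runs of 8 and 20 peaks. The gap limit of 5 kb mattered in a similar way, since 146 of the 2746 gaps inside clusters (5.32%) exceeded 4.5 kb.

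The clusters stood in peak-rich surroundings. Within 100 kb a cluster had a median of 13 injury-list peaks besides its own (quartiles 8 and 19) and 4 control-list peaks (2 and 7). Solitary far peaks had 7 other injury-list peaks (3 and 13) and 2 control-list peaks (1 and 4). Within 500 kb the medians were 54 and 18 for clusters and 36 and 11 for solitary far peaks. Clusters were thus in regions richer in peaks of both lists than solitary far peaks, and 87 of them (8.36%) had no control-list peak within 100 kb. Injury-list peak numbers near a cluster are not independent of the choice, since a cluster needs neighbours. The rule limited control-list numbers directly only within 10 kb. They are not independent of the choice either, since the lists share regions: 18226 injury-list peaks overlapped control. Windows were measured from the edges of a cluster, so they were longer than those around a solitary peak.

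Many clusters had another cluster nearby. Another cluster was within 50 kb of 239 clusters (23.0%), within 100 kb of 325 (31.2%) and within 1 Mb of 844 (81.1%). In 121 clusters (11.6%, 9.74 to 13.7%) another lay within 20 kb, where the gap limit of 5 kb can divide a single row. No background share was computed, so nearness beyond what the density of clusters gives was not tested. The clusters fell into 627 of the 1763 autosomal windows of 1 Mb with any injury-list peak (35.6%). Of these 627 windows, 367 held 1 cluster and 40 held 4 or more. The windows with the most, chosen after their values were seen, were chromosome 15 from 101 to 102 Mb with 6 clusters among 75 injury-list and 27 control-list peaks, and chromosome 14 from 121 to 122 Mb with 6 among 91 and 28. The window of the largest cluster, chromosome 12 from 113 to 114 Mb, had 5 clusters with 30 peaks among 140 injury-list and 55 control-list peaks. Of the 1763 windows, 227 (12.9%) had no control-list peak. They held 1.27% of cluster peaks (0.94 to 1.68%), in 13 clusters and 12 windows, compared with 4.43% of solitary far peaks (4.05 to 4.84%) and 1.14% of all injury-list peaks. The one with 2 clusters, on chromosome 1 from 62 to 63 Mb, had 10 of its 17 injury-list peaks in them.

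Every autosome had clusters, from 30 on chromosome 18 to 82 on chromosome 4. Chromosome 14 had the highest share of its injury-list peaks in clusters, 9.71% (8.36 to 11.2%). Chromosome 3 followed with 9.33% (8.11 to 10.7%), then chromosome 6 with 8.59% (7.52 to 9.76%). The lowest share was that of chromosome 5, 5.58% (4.93 to 6.29%). Chromosomes 7, 10 and 11 were close to it with 5.78%, 5.81% and 5.92%. The shares were set beside the density of control-list peaks, and a relation between them was not tested. Chromosomes 14, 3 and 6 had 4.79, 4.33 and 5.25 control-list peaks per Mb, against 12.8 on chromosome 5 and 15.3 on chromosome 11. Chromosomes 19 and 15, however, had shares of 8.46% (7.15 to 9.93%) and 8.23% (7.23 to 9.32%) with 10.7 and 11.4 control-list peaks per Mb. Chromosome 13 had a share of 6.96% (5.82 to 8.24%) with 4.87. Counted among far peaks alone, the order was different. The share of far peaks in clusters was 19.7% over all autosomes. It was highest on chromosomes 15 (25.8%, 23.0 to 28.8%) and 4 (25.3%, 22.9 to 27.9%). Chromosomes 14 and 11 had 21.3% and 20.7%, and chromosomes 3 and 6 had 18.8% and 17.4%.

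Per Mb of sequence more than 10 kb from control the order was another. This far space made up 87.0% of the autosomes between their first and last peaks, from 78.3% on chromosome 11 to 92.6% on chromosome 3, and held 0.50 clusters per Mb. Chromosome 11 had 0.74 clusters per Mb of far space, chromosomes 19 and 15 had 0.74, and chromosome 17 had 0.73. The lowest values were 0.32 on chromosome 13, 0.37 on chromosome 3 and 0.38 on chromosome 1. The chromosome 11 value rests on 69 clusters (exact Poisson interval 53.7 to 87.3) and the chromosome 13 value on 34 (23.5 to 47.5). Chromosomes 11, 19, 15 and 17 did not differ beyond counting error. Chromosome 11 was thus among the low ones by the share of all injury-list peaks and among the high ones per Mb of far space. The reverse held for chromosome 3.

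**Figure D5:**
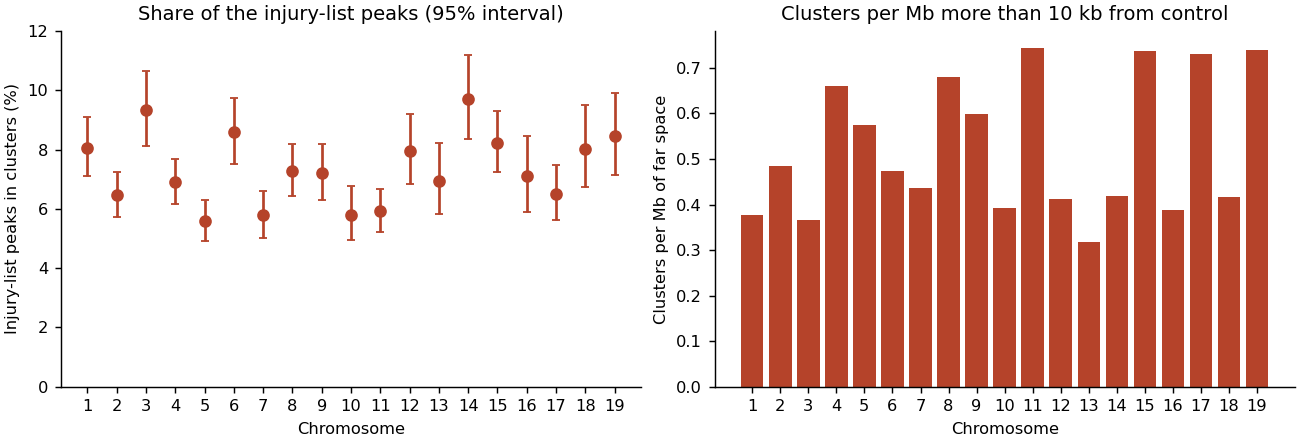
Share of the injury-list peaks of each autosome that lie in clusters, in % with 95% binomial intervals (left), and clusters per Mb of sequence more than 10 kb from control-list peaks (right). On the left chromosome 14 has 9.71%, and on the right chromosomes 11, 19, 15 and 17 lie close together at 0.73 to 0.74 clusters per Mb.

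Along the chromosomes the clusters leaned toward the distal end about as the lists did. Of the clusters, 115 (11.0%, 9.21 to 13.1%) lay within 5 Mb of the last peak of a chromosome, compared with 9.37% of all injury-list peaks (9.12 to 9.62%), 9.54% of control-list peaks (9.14 to 9.95%) and 6.95% of solitary far peaks (6.48 to 7.45%). Within 5 Mb of the first peak lay 34 clusters (3.27%, 2.27 to 4.53%), compared with 3.21% of injury-list peaks. The distal share of clusters was above that of solitary far peaks, and its interval takes in the values of both whole lists. Clusters were set beside single peaks here, and neighbours were treated as independent, so the difference from solitary far peaks was not tested. No test over mice could be made of any of these positions.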

How the data were processed

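5hmC-enriched DNA of 3 injured and 3 control mice was sequenced. Per the submitters' processing notes, MACS 1.4.2, Bowtie 0.12.9 and CASAVA 1.4 were used, with the mm9 build. The authors deposited 1 peak list per group, without header, with a position and a score for each peak. Not given in the sources used here: settings, read numbers, any input control and whether the mice of a group were pooled. Scores and peak numbers grow with sequencing depth, so each score was used within its own list, except for a common threshold tried as an alternative. Absence from the control list means that no peak passed the caller's limit there, not that 5hmC was absent.

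Positions count from 1. The tables of genes and sequences at hand are of GRCm38, and peaks reach 152.5 Mb on chromosome 7, as on mm9, so no gene, annotation or sequence was matched, none is named, and the planned gene counts were not made. The 33 injury-list peaks on X were left out by the rule. Clusters, distances and shares were computed with Python 3.11.15, numpy 2.4.6, pandas 2.3.3 and scipy 1.17.1, and plotted with matplotlib 3.10.9. Intervals of medians come from binomial order statistics. The cluster search was tested on simulated lists: 100% of the peaks planted in clusters were found, and distances on chromosome 19 had 0 mismatches with a direct comparison. The clusters named are the 8 with the most peaks, the 5 longest, the 5 with the highest peak score, the 5 farthest from control and the 3 on each side of the 10 kb limit. The part of the data, the rule and the measures were chosen with earlier results of these data known.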

Additional observations from a re-analysis of the deposited data

How the results depend on the processing

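The numbers, spans, scores, widths, coverage and positions of the clusters, and 4 further results added after the data were seen, were recomputed under other limits. The run classes, the spread of scores within clusters, the clusters per Mb of far space, the numbers of surrounding peaks, and the pair and near-control classes were not. Clusters numbered 1459 beyond 5 kb from control, 620 beyond 20 kb, 459 with gaps of 2 kb, 1613 with gaps of 10 kb, 694 with a score of at least 79.7, the control median, required in both lists, 141 with the injury list alone held to its own median (87.3), 508 after injury-list peaks within 1 kb were merged, 70 with only as many injury-list peaks, by score, as there are control-list peaks (reduced), 391 with 4 or more peaks required and 3363 with 2 or more. Only whole runs, added after the data were seen, gave 856. Peaks in clusters numbered 2236 (20 kb), 1531 (2 kb gaps), 6413 (10 kb gaps), 2515 (both lists at the control median), 482 (injury list at its median), 1721 (merged), 228 (reduced), 1837 (4 or more) and 8431 (2 or more). The share of far peaks in clusters was 21.9% (5 kb), 16.4% (20 kb), 7.96% and 33.3% (2 and 10 kb gaps), 17.6% (both lists), 7.66% (injury list), 10.1% (merged) and 5.79% (reduced). Control-list clusters by the exchanged rule numbered 4 (5 kb), 1 (20 kb), 1 (2 kb gaps), 27 (injury list at its median) and 47 (reduced). The median span was 11.6 kb (20 kb), 8.82 and 16.8 kb (2 and 10 kb gaps), 14.4 kb (both lists), 13.8 kb (injury list), 14.3 kb (merged, and reduced), 16.3 kb (4 or more) and 7.06 kb (2 or more). The median score was 79.3 (20 kb), 83.2 and 77.5 (2 and 10 kb gaps), 125.2 (both lists), 127.7 (injury list), 83.7 (merged) and 148.2 (reduced), and the median width 1930 bp (20 kb), 2680 bp (both lists), 2710 bp (injury list), 2111 bp (merged) and 3004 bp (reduced). The covered share of a span was 62.4% (20 kb), 81.7 and 46.7% (2 and 10 kb gaps), 69.3% (both lists), 70.1% (injury list), 57.5% (merged) and 72.4% (reduced). The median distance to control was 13.4 kb (5 kb), 39.96 kb (20 kb), 27.6 kb (both lists), 17.2 kb (injury list), 24.4 kb (merged) and 18.3 kb (reduced). The clusters chosen for naming inside the 10 kb limit numbered 22. Of these, 17 overlapped a cluster beyond 20 kb, 15 with gaps of 2 kb and 16 after merging. The number was 14 with both lists at the control median, 13 with the injury list at its median and 11 with the reduced list. The highest chromosome share over the lowest was 1.74 as reported, 5.92 (injury list) and 6.37 (reduced), and the share of clusters within 5 Mb of either end 14.3% as reported, 18.4% (injury list) and 18.6% (reduced). Of the added results, the median score of solitary far peaks was 70.0 (5 kb), 68.4 (20 kb), 70.1 and 68.6 (2 and 10 kb gaps), 108.0 (both lists), 112.2 (injury list), 70.8 (merged) and 132.4 (reduced), below that of cluster peaks under each of these 8. The share of far peaks beyond 100 kb in clusters was 9.18% as reported, 4.30 and 17.9% (2 and 10 kb gaps), 10.5% (both lists), 2.01% (injury list), 4.71% (merged) and 2.53% (reduced). Clusters with another within 100 kb made up 37.8% (5 kb), 22.4% (20 kb), 17.9 and 38.4% (2 and 10 kb gaps), 27.4% (both lists), 9.93% (injury list), 15.2% (merged) and 8.57% (reduced), and the strongest peak was the middle one in 28.1% of 3-peak clusters (reduced). Distance, gap and peak limits change these values by construction; for the score limits the cause was not tested. No paired analysis was possible because nothing in the peak lists belongs to a single mouse, and so leaving out mice was not possible either.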
